A study of Mus musculus with 6 samples.

Results

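The 10 genes described here carry the insulin signal from its receptor to glucose uptake and storage: Insr, Irs1, Irs2, Pik3r1, Akt1, Akt2, Pde3b, Tbc1d4, Slc2a4 and Gys1. They were chosen by symbol from 22322 genes in the deposited table, and all 10 were among the 13829 genes that passed the filter on low counts. The study sequenced mRNA of epididymal white adipose tissue, the visceral fat beside the epididymis, from Mus musculus fed a high fat diet for 17 weeks. The 3 wild type libraries come from wild type mice on that diet, and the 3 CD44 KO libraries from mice on the same diet that lack CD44, a surface receptor for hyaluronan. Both groups had the diet, and no other diet was analysed here. The labels used here do not give the strain, the age or the design of the knockout allele. Nor do they say that each library is a separate mouse, so p-values measure the spread between these libraries, which may be technical. The comparison of the genotypes describes mRNA levels in the white fat of mice with and without CD44.

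The libraries differed in more than genotype. Their total expected counts ran from 15543317 to 18765009. Cd44 stood at 44.1 to 144.4 FPKM (a level scaled to gene length and library depth) in wild type and 0.36 to 0.59 FPKM in the knockout, which goes with the labels. Adipoq, which defines fat cells, was present at 556.5 to 2688 FPKM in all 6 libraries. The summed level of 15 mature adipocyte markers was 27497 to 46922 CPM (counts scaled to library size) in wild type, highest in replicate 1, and 47765 to 68225 CPM in the knockout. Of these markers edgeR called 1 of 15 higher (Cfd) and 0 lower, and Lep, Cd36 and Lpl were lower in every knockout library than in any wild type library (log2 fold changes -1.75, -0.52 and -0.29). Of all genes tested, 18.1% were lower in every knockout library than in any wild type library. Cfd alone was at 104.5 to 740 CPM in wild type and 6802 to 14870 CPM in the knockout. Without Cfd the summed levels of the groups overlap. The summed level of 15 pan-macrophage markers was 4065 to 9521 CPM in wild type, and 4533, 294.7 and 907.8 CPM in CD44 KO replicates 1 to 3. Of these 15, edgeR called 0, and 2 were lower at an unadjusted edgeR p under 0.05. Their median log2 fold change was -1.83, and 0 of 15 had a positive one. Every knockout library lay below every wild type library for 6 of the 15, where 18.1% of all genes tested showed this. Of 14 progenitor and fibroblast markers edgeR called 3 lower (Thy1, Fap and Pi16) and 0 higher, with a median log2 fold change of -0.95. All 10 mesothelial markers were higher in every knockout library than in any wild type library, where 19.7% of all genes tested were. Of these 10, edgeR called 1 (Krt19). Their sums were 5.22 to 15 CPM in wild type and 51.3 to 479.4 CPM in the knockout. The 15 epididymis markers summed to 1.13 to 2.03 CPM in wild type and to 15.7, 13537 and 7.19 CPM in CD44 KO replicates 1 to 3. Only 2 of the 15 passed the filter (Adam7 and Crisp1). Both were higher in every knockout library than in any wild type library, and edgeR called 0 of them. CD44 KO replicate 2 also had the mesothelial sum of 479.4 CPM, against 87.1 and 51.3 CPM in CD44 KO replicates 1 and 3. Of that sum Krt18 and Krt8 made up 220.7 and 195.9 CPM, against 6.41 to 15.2 CPM each in CD44 KO replicates 1 and 3. Among 15 skeletal muscle markers, which matter because muscle uses Slc2a4 and Gys1 too, the sums were 23.9 to 82.5 CPM in wild type and 40.2 to 55.5 CPM in the knockout. Ckm, which defines muscle, was at 0 to 0.24 CPM. Only 4 of the 15 muscle markers passed the filter, and edgeR called 1 lower and 0 higher. The called marker was Pvalb, at 6.3 to 17.2 CPM in wild type and 0 to 0.18 CPM in the knockout (log2 fold change -6.84, edgeR adjusted p 0.0261). Actn3 was higher in every knockout library than in any wild type library (1.88, adjusted p 0.076), while Myl1 and Acta1 overlapped. In bulk tissue fewer cells of a type and less RNA per cell cannot be told apart, and the part of these markers in the results below was not tested.

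Insulin binds the receptor tyrosine kinase encoded by Insr, which phosphorylates docking proteins such as IRS1 and IRS2. These recruit phosphoinositide 3-kinase, whose lipid product activates AKT kinases. In fat cells AKT2 phosphorylates TBC1D4 and so releases vesicles that bring the glucose transporter GLUT4, the product of Slc2a4, to the cell surface. The pathway also turns on the phosphodiesterase PDE3B, which lowers cyclic AMP and restrains lipolysis, and glycogen synthase. Obesity is known to blunt these steps in adipose tissue.

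RefSeq's table of promoters (GRCm38.p6) held entries for 7 of the 10 genes and none for Insr, Pde3b and Slc2a4. The 250 bases before the start site are shown for the substrate pair Irs1 and Irs2, whose levels are compared below, and for Gys1, the other called gene with an entry. In Irs1 and Irs2 the capitals mark the E-box CACGTG and the letters TGTTTTG, an insulin response element known to be bound by FOXO factors. In Gys1 they mark CCAAT or its reverse complement ATTGG.
Irs1, minus strand, chr1:82291440-82291689: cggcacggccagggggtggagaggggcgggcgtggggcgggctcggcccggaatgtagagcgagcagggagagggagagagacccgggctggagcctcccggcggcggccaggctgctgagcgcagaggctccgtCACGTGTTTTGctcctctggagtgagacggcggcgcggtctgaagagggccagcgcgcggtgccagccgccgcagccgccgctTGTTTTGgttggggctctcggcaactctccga
Irs2, minus strand, chr8:11008930-11009179: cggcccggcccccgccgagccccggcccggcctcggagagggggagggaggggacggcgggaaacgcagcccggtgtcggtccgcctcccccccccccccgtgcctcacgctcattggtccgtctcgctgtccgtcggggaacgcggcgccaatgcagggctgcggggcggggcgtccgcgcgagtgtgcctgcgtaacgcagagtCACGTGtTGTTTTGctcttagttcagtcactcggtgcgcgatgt
Gys1, plus strand, chr7:45434589-45434838: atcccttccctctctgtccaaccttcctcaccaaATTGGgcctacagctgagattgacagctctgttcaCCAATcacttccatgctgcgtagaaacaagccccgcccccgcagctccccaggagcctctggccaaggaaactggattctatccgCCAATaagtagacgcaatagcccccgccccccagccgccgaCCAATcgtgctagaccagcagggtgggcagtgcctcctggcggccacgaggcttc
In Irs1 the E-box lay 115 to 110 bases before the start and TGTTTTG 111 to 105 bases before it, so that the pair of motifs overlapped. A second TGTTTTG of Irs1 lay 32 to 26 bases before the start. In Irs2 the E-box lay 44 to 39 bases and TGTTTTG 37 to 31 bases before the start. The motifs were searched on both strands and were chosen after the sequences had been read. Among 32851 such windows in the table, 6.02% held CACGTG, 5.56% held TGTTTTG and 0.0457% (15 windows) held both with starts within 20 bases. These 15 include the windows of Irs1 and Irs2, from which the pair was chosen, so the share is no test. No window of Pik3r1, Akt1, Akt2, Gys1 or Tbc1d4 held CACGTG or TGTTTTG. Gys1 held 4 matches to CCAAT, which 33.8% of windows hold. RefSeq's start of Irs2 lies 471 bases upstream of the gene's start in GENCODE M21, while those of Irs1 and Gys1 lie 23 and 5 bases upstream. A match describes letters in this window and no binding was measured.

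All but 1 of the 10 members had higher levels in every CD44 KO library than in any wild type library, and Akt1 was the exception. A subset of 4 passed the edgeR quasi-likelihood test with Benjamini-Hochberg adjustment at an adjusted p under 0.05, namely Irs1, Pde3b, Gys1 and Insr, and all of these rose. The called share was 4 of 10, where 1.74% of all genes tested were called higher. Separation of the groups in the upward direction was seen in 9 of 10 members, where 19.7% of all genes tested showed it, and in the downward direction in 0 members, where 18.1% did. The median log2 fold change was 1.41 over the members and 0.03 over all genes tested. At an unadjusted p under 0.05, 9 members were higher, where 16.3% of all genes tested were. Of the 10 genes, 9 had an FDR under 0.05 in the authors' deposited table, where 6.07% of its genes were higher at that FDR. That share is over all 22322 genes, including those that failed the filter on low counts, which all 10 members passed.

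**Figure D1:**
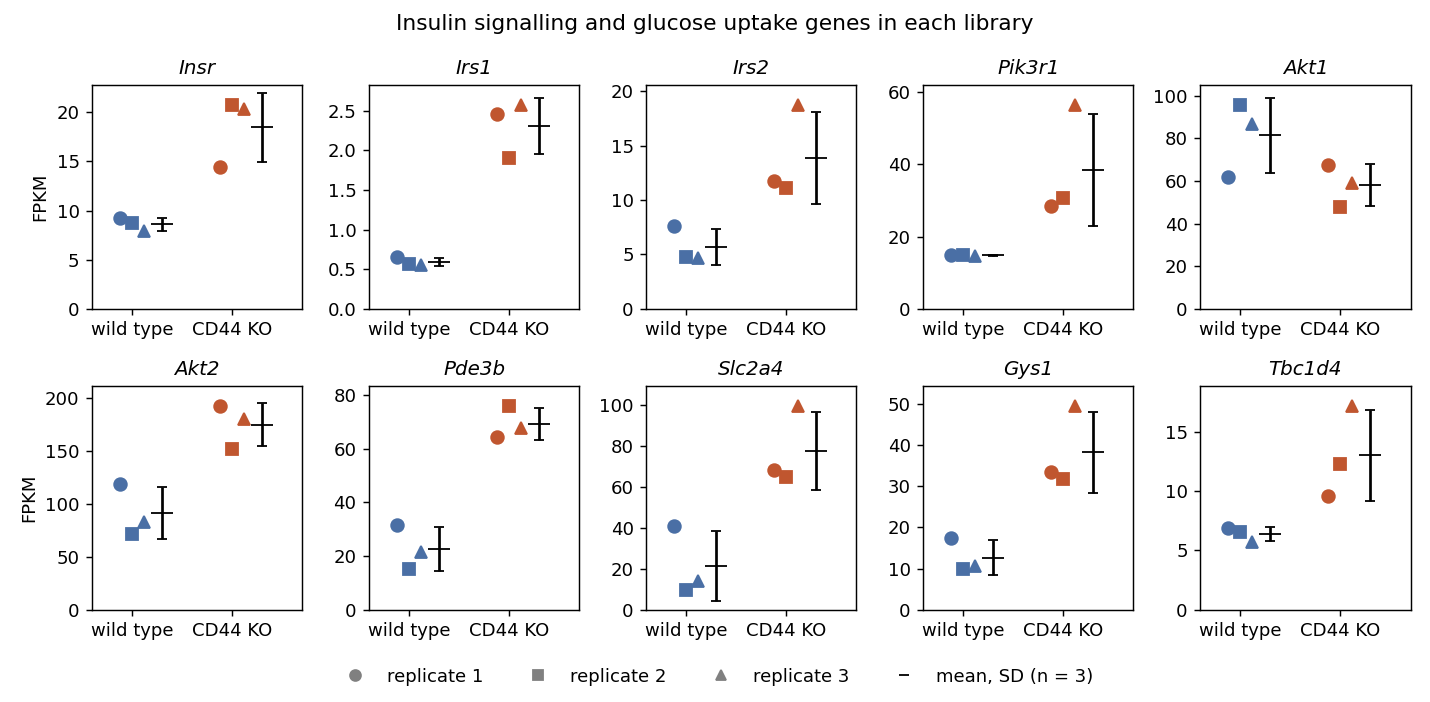
Level of each of the 10 genes in FPKM (y axis from 0) in the 3 wild type and 3 CD44 KO libraries, with symbols for the replicates and a bar for the mean and SD. Irs1 lies at 0.55 to 0.65 in wild type and 1.91 to 2.57 in the knockout, while the groups of Akt1 overlap.

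The insulin receptor rose. Insr (ENSMUSG00000005534, minus strand of chromosome 8, 3122061 to 3279617 in GRCm38) stood at 9.19, 8.75 and 7.87 FPKM in wild type replicates 1 to 3 and at 14.4, 20.7 and 20.3 FPKM in the knockout replicates 1 to 3. The lowest knockout library, replicate 1, was 1.57-fold above the highest wild type library. By edgeR the increase was 2.16-fold (95% interval 1.55 to 3.03; log2 fold change 1.11, SE 0.20, adjusted p 0.048). The call held in 1 of 6 fits that each left out 1 library, the fit without CD44 KO replicate 1.

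Of the receptor's docking proteins, Irs1 rose from a very low level and Irs2 was higher without a call. Irs1 (ENSMUSG00000055980, minus strand of chromosome 1, 82233101 to 82291416) stood at 0.65, 0.57 and 0.55 FPKM in wild type and 2.46, 1.91 and 2.57 FPKM in the knockout, from 99, 96 and 95 against 374, 310 and 365 expected counts. Both groups were tight and far apart. The increase was 4.03-fold (95% interval 2.98 to 5.46; log2 fold change 2.01, SE 0.18, edgeR adjusted p 0.0196). On the log2(FPKM + 1) scale, which understates the change of low genes, limma gave a difference of 1.05 (adjusted p 0.0283). It was called without wild type replicate 1, CD44 KO replicate 1 or replicate 2 of that group, and not without wild type replicate 2 (edgeR adjusted p 0.097), wild type replicate 3 (0.178) or CD44 KO replicate 3 (0.0792), with log2 fold changes of 1.94 to 2.11 throughout.

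The exons of Irs1 share 2822 bases with Gm9747 on the opposite strand, and whether the counting used strand is not given in the sources used here. Reads of the pair could therefore be split between them. Gm9747 stood at 247, 93 and 129 expected counts in wild type and 447, 519 and 1036 in the knockout (log2 fold change 2.25, SE 0.54, edgeR adjusted p 0.0726). Its wild type counts differed by more than those of Irs1, which were 95 to 99.

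Irs2 (ENSMUSG00000038894, minus strand of chromosome 8, 10984681 to 11008458) stood at 7.63, 4.78 and 4.71 FPKM in wild type and 11.7, 11.1 and 18.7 FPKM in the knockout. Wild type replicate 1 and CD44 KO replicate 3 were each the highest of their group, by 1.61-fold and 1.64-fold over the mean of the other libraries. The groups did not overlap. The log2 fold change was 1.32 (SE 0.29) with an edgeR adjusted p of 0.0615, and the gene was called at 1.60 without wild type replicate 1 and at 1.45 without CD44 KO replicate 1.

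Pik3r1, which encodes the p85 alpha regulatory subunit of phosphoinositide 3-kinase, was nearly constant in wild type and variable in the knockout. It stood at 15, 14.8 and 14.7 FPKM in wild type and at 28.5, 30.7 and 56.4 FPKM in the knockout (ENSMUSG00000041417, minus strand of chromosome 13, 101680563 to 101768217). CD44 KO replicate 3 was 1.91-fold above the mean of the other knockout libraries, and the lowest knockout library was 1.90-fold above the highest wild type library. The log2 fold change was 1.49 (SE 0.29, edgeR adjusted p 0.0528), which missed the threshold with all libraries and passed it without CD44 KO replicate 1 (1.68, adjusted p 0.023).

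The AKT kinases differed from each other. Akt2 (ENSMUSG00000004056, plus strand of chromosome 7, 27591552 to 27640826), the main AKT of insulin-stimulated glucose uptake in fat, stood at 118.8, 71.8 and 82.7 FPKM in wild type and 192.4, 152.2 and 179.9 FPKM in the knockout. The lowest knockout library was 1.28-fold above wild type replicate 1, the highest of its group. Its log2 fold change was 0.94 (SE 0.24, edgeR adjusted p 0.0759), with a call at 1.22 without wild type replicate 1.

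Akt1 (ENSMUSG00000001729, minus strand of chromosome 12, 112653821 to 112674884), a kinase tied to growth and survival in many cell types, stood at 61.9, 95.5 and 86.7 FPKM in wild type and 67.6, 47.9 and 59.0 FPKM in the knockout. The groups overlapped, since wild type replicate 1 lay below CD44 KO replicate 1. The edgeR log2 fold change was -0.41 (SE 0.21, 95% interval -0.91 to 0.09, adjusted p 0.219), and no fit that left out 1 library called it.

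Among the enzymes and regulators that AKT signalling acts on, Pde3b rose and Tbc1d4 was higher without a call. Pde3b (ENSMUSG00000030671, plus strand of chromosome 7, 114415281 to 114539251) stood at 31.5, 15.1 and 21.6 FPKM in wild type and 64.4, 76.0 and 67.7 FPKM in the knockout. Even the highest wild type library, replicate 1, was 2.05-fold below the lowest knockout library. The increase was 3.17-fold (95% interval 1.94 to 5.17; log2 fold change 1.66, SE 0.29, edgeR adjusted p 0.0461), called also without wild type replicate 1 and without CD44 KO replicate 1 but in no other such fit.

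Tbc1d4 (ENSMUSG00000033083, minus strand of chromosome 14, 101442360 to 101609191), which encodes the GTPase-activating protein AS160 that holds GLUT4 vesicles inside the cell, stood at 6.90, 6.52 and 5.74 FPKM in wild type. In the knockout it stood at 9.61, 12.3 and 17.2 FPKM. The wild type libraries were close together and the knockout libraries were spread, with the lowest 1.39-fold above the highest wild type library. The log2 fold change was 1.07 (SE 0.24, edgeR adjusted p 0.0638), and 1.26 with a call without CD44 KO replicate 1.

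Slc2a4 varied widely among the wild type libraries. It stood at 40.7, 9.39 and 13.8 FPKM in wild type and 68.5, 64.8 and 99.6 FPKM in the knockout (ENSMUSG00000018566, minus strand of chromosome 11, 69942539 to 69948188). Wild type replicate 1, which also had the highest adipocyte and lowest macrophage marker sums of its group, was 3.51-fold above the mean of the other wild type libraries. The log2 fold change was 1.90 with an SE of 0.60 (95% interval of the fold 1.36 to 10.3, edgeR adjusted p 0.106), and without wild type replicate 1 it was 2.89 with an adjusted p of 0.0346.

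Gys1, the glycogen synthase first described in muscle, rose. Its levels (ENSMUSG00000003865, plus strand of chromosome 7, 45434844 to 45456619) were 17.5, 9.76 and 10.7 FPKM in wild type and 33.4, 31.9 and 49.6 FPKM in the knockout. Replicate 1 was high in wild type and replicate 3 was high in the knockout, and the groups did not overlap. The increase was 3.12-fold (95% interval 1.93 to 5.06; log2 fold change 1.64, SE 0.29, edgeR adjusted p 0.0461), called also without wild type replicate 1 and without CD44 KO replicate 1 but in no other such fit. Exons of Gys1 share 310 bases with Ruvbl2 on the opposite strand, which stood at 12.4 to 14.0 FPKM in wild type and 13.6 to 15.6 FPKM in the knockout.

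The calls depended on single libraries while the directions did not. With all libraries 4 members were called higher. The count was 6 without wild type replicate 1 and 7 without CD44 KO replicate 1, where 2.46% and 7.22% of all genes tested were called higher. It was 0 without wild type replicate 2, 0 without wild type replicate 3 and 0 without CD44 KO replicate 3, where 0.0145%, 0% and 0.0362% of all genes were. Without CD44 KO replicate 2, the library with the most epididymis transcripts, 1 member was called (Irs1), where 0.456% of all genes were. No member was called lower in these 6 fits, where 0.629%, 0.0506% and 0% of all genes were without wild type replicates 1 to 3 and 10%, 0.26% and 0.0217% without CD44 KO replicates 1 to 3. With all libraries, other choices gave 4 members called higher with RLE size factors and 4 by limma on log2(FPKM + 1), where 1.76% and 1.84% of all genes were, 2 with total counts only (1.42% of all genes) and 1 with no filter on low counts (0.784%). DESeq2 called 9 members higher, where 10.7% of all genes were. Under these choices 0 members were called lower, where 10.7%, 0.882%, 1.31%, 0.788% and 0.46% of all genes were by DESeq2 and with RLE, limma, total counts and no filter. Each of the 10 log2 fold changes kept its sign in each of these 6 fits.

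**Figure D2:**
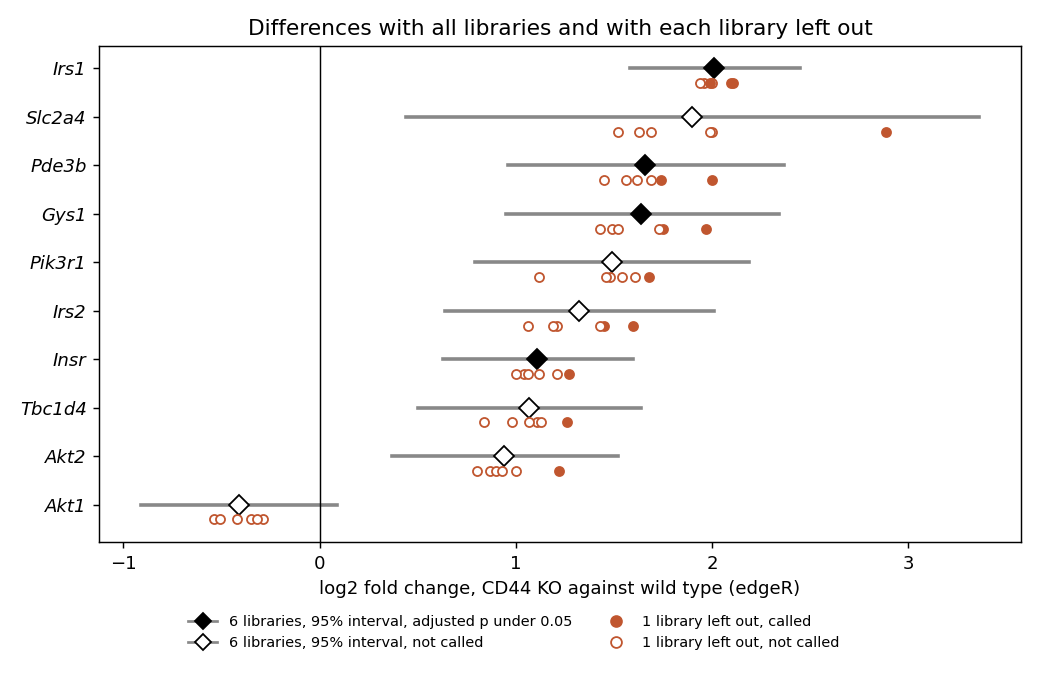
Log2 fold change of each gene (x axis) with its 95% interval over all 6 libraries (diamonds) and with each library left out in turn (circles); filled symbols passed an edgeR adjusted p under 0.05. Slc2a4 has the widest interval and moves from 1.90 to 2.89 when wild type replicate 1 is left out, and Akt1 alone lies below 0.

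Levels differed widely among the members, with the AKT genes at the top and Irs1 at the bottom. By mean FPKM in wild type the order was Akt2 (91.1), Akt1 (81.4), Pde3b (22.7), Slc2a4 (21.3), Pik3r1 (14.8), Gys1 (12.7), Insr (8.60), Tbc1d4 (6.39), Irs2 (5.71) and Irs1 (0.59). Neighbouring ranges overlapped for Akt2 with Akt1, for Pde3b with Slc2a4, for Slc2a4 with Pik3r1, for Pik3r1 with Gys1 and for Tbc1d4 with Irs2. In the knockout the order began Akt2 (174.9), Slc2a4 (77.6), Pde3b (69.4), Akt1 (58.2), Pik3r1 (38.5) and Gys1 (38.3), and ended Insr (18.5), Irs2 (13.8), Tbc1d4 (13.0) and Irs1 (2.31). In the knockout the ranges of neighbours overlapped throughout from Slc2a4 to Gys1 and from Insr to Tbc1d4, so the order within each of these runs was not resolved. There Akt2 stood clear of the next gene, and Irs1 stood clear at the bottom as it did in wild type.

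Ratios within a library do not depend on how libraries are scaled, and 3 were compared. Akt2 stood at 1.92, 0.752 and 0.953 times the FPKM of Akt1 in wild type and at 2.85, 3.18 and 3.05 times in the knockout. The log2 ratio differed by 1.44 between the genotypes, without overlap (two-sided exact permutation p 0.1, adjusted 0.1 over the 3 ratios; 0.10 is the smallest that 3 libraries against 3 allow). The ratio in wild type replicate 1 was closer to the knockout than those of its group.

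Slc2a4 was also set against Slc2a1, the basal glucose transporter GLUT1 of many cell types. The ratio was 6.68, 0.593 and 1.63 in wild type and 8.32, 7.53 and 11.5 in the knockout, a difference of 2.27 in log2 (exact permutation p 0.1, adjusted 0.1). Without wild type replicate 1 the difference was 3.19, and without wild type replicate 2 it was 1.44. Slc2a1 itself stood at 6.09, 15.8 and 8.43 FPKM in wild type and 8.23, 8.61 and 8.66 FPKM in the knockout (edgeR log2 fold change -0.34, adjusted p 0.539), inside the wild type range in each knockout library. Irs1 stood at 0.0852, 0.119 and 0.117 times the FPKM of Irs2 in wild type and at 0.211, 0.171 and 0.138 times in the knockout, a log2 difference of 0.69 (exact permutation p 0.1, adjusted 0.1). The 3 designs are alike in that none can pass 0.05.

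Irs3, a substrate found in rodents and expressed in fat cells, was looked at after its values were seen. It exceeded Irs2 in 5 of 6 libraries and Irs1 in all 6, at 19.1, 6.98 and 11.8 FPKM in wild type and 23.0, 10.7 and 32.9 FPKM in the knockout. Its groups overlapped (edgeR log2 fold change 0.84, adjusted p 0.266). Of the summed FPKM of the 3 substrates Irs1 was 3.41% ± 1.13 (SD, n = 3) in wild type and 6.48% ± 1.66 in the knockout.

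The paralog of Gys1 went the opposite way. Gys2, the glycogen synthase first described in liver, stood at 29.8, 13.9 and 16.0 FPKM in wild type and at 0.99, 1.12 and 1.69 FPKM in the knockout, from 999, 449 and 736 against 44, 53 and 70 expected counts. It fell by 3.56 on the log2 scale (SE 0.40, edgeR adjusted p 0.0261), called also without wild type replicate 1 and without CD44 KO replicate 1 but in no other fit that left out 1 library, with log2 fold changes of -3.82 to -3.16. Gys1 made up 37.0%, 41.2% and 40.1% of the summed FPKM of the pair in wild type and 97.1%, 96.6% and 96.7% in the knockout, a share that was picked after its values were seen and was not tested. The sum of the pair was 47.3, 23.7 and 26.7 FPKM in wild type and 34.4, 33.0 and 51.3 FPKM in the knockout, with overlap.

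**Figure D3:**
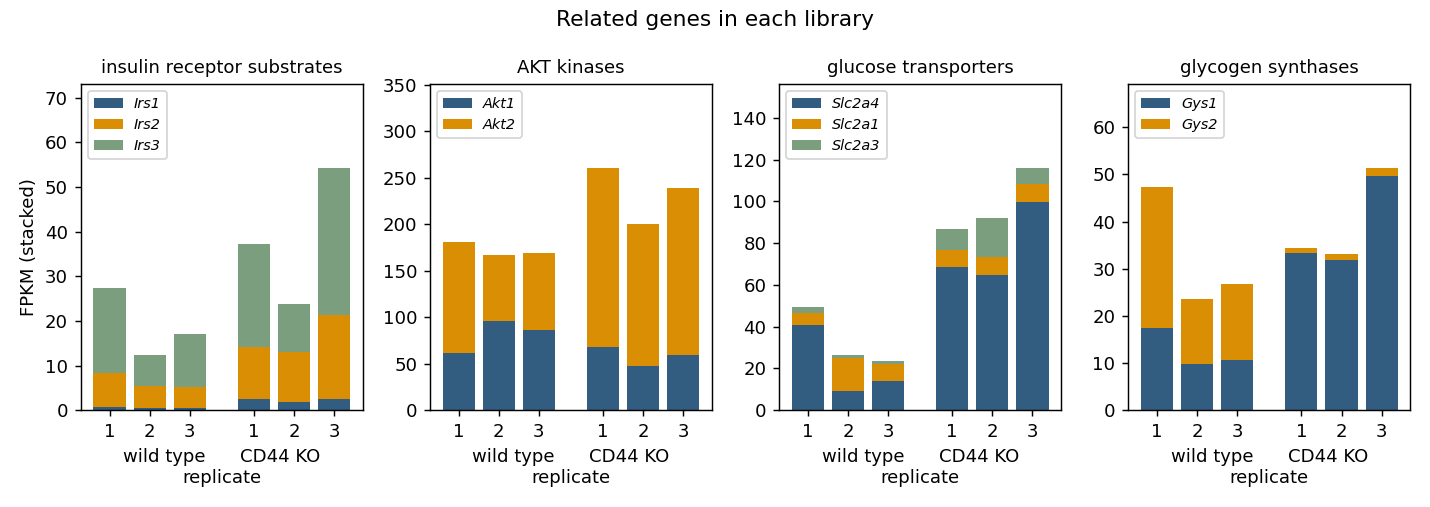
Stacked FPKM (y axis from 0) of the insulin receptor substrates, the AKT kinases, 3 glucose transporters and the glycogen synthases in each library. Gys2 is at 13.9 to 29.8 in wild type and 0.99 to 1.69 in the knockout, while the summed level of the synthases overlaps between the groups.

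The members were also read against the 15 adipocyte markers, of which 8 were higher in every knockout library than in any wild type library, 3 were lower and 4 overlapped. Of all genes tested, 19.7% were higher and 18.1% lower in this way. The mean log2 CPM of the 15 markers was 10.49, 9.15 and 9.64 in wild type and 11.09, 10.89 and 11.42 in the knockout, a difference of 1.37, while the median log2 fold change of the list was 1.03. Cfd (log2 fold change 4.76) and Adrb3 (4.30) had the highest values in the list. After this mean was subtracted in each library, the groups overlapped for 8 of the 10 members. Slc2a4 stayed higher in the knockout, at -3.75, -3.54 and -3.53 against -3.86, -4.77 and -4.70 (difference 0.84, exact permutation p 0.1, adjusted over the 10 members 0.5), where 1.41% of all genes tested were apart in that direction. The gap between the groups was small, since wild type replicate 1 lay just below the knockout libraries.

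Akt1 was lower in every CD44 KO library on this relative scale, at -3.61, -3.79 and -4.11 against -3.14, -1.23 and -1.82 (difference -1.77, exact permutation p 0.1, adjusted 0.5), as were 67.2% of all genes tested. The relative difference of Irs1 was 0.61, of Pde3b 0.35, of Gys1 0.29, of Pik3r1 0.05, of Irs2 -0.05, of Insr -0.28, of Tbc1d4 -0.34 and of Akt2 -0.39. Against the 4 defining markers Adipoq, Plin1, Cidec and Fabp4 alone, whose mean differed by 1.00, Irs1, Pde3b, Slc2a4 and Gys1 were apart and higher (differences 0.98, 0.72, 1.21 and 0.66), where 2.31% of all genes tested were. The differences of Insr, Irs2 and Tbc1d4 changed sign, to 0.09, 0.32 and 0.03. Which members stand apart thus changed with the markers chosen.

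**Figure D4:**
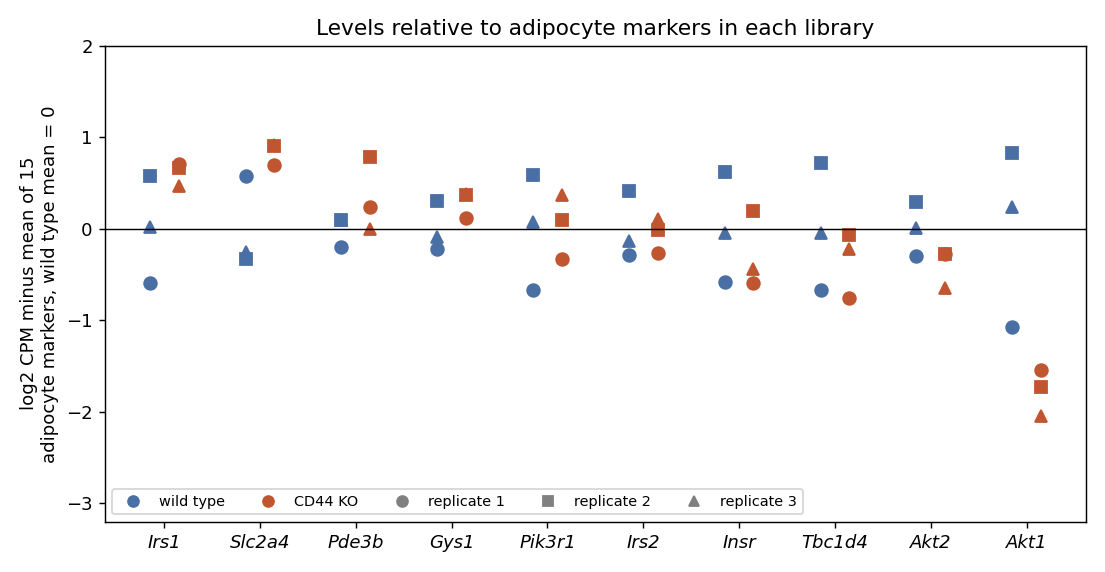
Log2 CPM of each gene minus the mean of 15 adipocyte markers in the same library (y axis, shifted so that the wild type mean is 0), for each library. Of the 10 genes, Slc2a4 and Akt1 have groups that do not overlap, with differences of 0.84 and -1.77.

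The pan-macrophage markers had a median log2 fold change of -1.83, with 0 of 15 called by edgeR. Their sums were similar in 1 library of each group. CD44 KO replicate 1 had a pan-macrophage sum of 4533 CPM, and wild type replicate 1 had 4065 CPM. Between these single libraries, which were picked after their values were seen and allow no test, Irs1 was 3.78-fold higher in the knockout, Pde3b 2.05-fold, Gys1 1.91-fold, Pik3r1 1.90-fold, Slc2a4 1.68-fold, Akt2 1.62-fold, Insr 1.57-fold, Irs2 1.53-fold, Tbc1d4 1.39-fold and Akt1 1.09-fold in FPKM. The corresponding adipocyte marker sums were 53952 and 46922 CPM, of which Cfd made up 8013 and 740 CPM.

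Of 106 other genes of the pathway, listed by role, 103 were tested. edgeR called 3 of them higher (Vamp2, Ralgapa2 and Slc2a3) and 1 lower (Gys2), where 1.74% and 0.882% of all genes tested were called. At an unadjusted p under 0.05, 24 were higher and 15 lower, where 16.3% and 14.7% of all genes were. Their median log2 fold change was 0.09.

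Adaptors and inhibitors at the receptor had 0 calls among 17 tested (3 higher and 4 lower at an unadjusted edgeR p under 0.05; median 0.62). The lowest p belonged to the adaptor gene Sh2b2 (log2 fold change 1.13, edgeR adjusted p 0.0543). Next came Grb10, an inhibitory adaptor of the receptor (0.91, adjusted p 0.065), and Ptpn1 (-1.0, adjusted p 0.0913). Ptpn1 encodes the phosphatase PTP1B, which acts on the insulin receptor. Ptpn1 stood at 17.1, 35.3 and 27.6 FPKM in wild type and 15.3, 10.7 and 12.9 FPKM in the knockout.

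Phosphoinositide 3-kinases and other kinases had 0 calls among 15 tested (3 higher and 2 lower at an unadjusted edgeR p under 0.05; median -0.05). Among those of lowest p, Prkci and Pik3cg had log2 fold changes of 0.74 and -2.16 and edgeR adjusted p of 0.0557 and 0.113. Pik3cg encodes a catalytic subunit found mainly in leukocytes.

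Phosphatases and brakes on AKT had 0 calls among 11 tested (3 higher and 2 lower at an unadjusted edgeR p under 0.05; median 0.19). The lowest p belonged to Ppp2r5b and Phlpp2 (log2 fold changes -0.61 and 0.95; edgeR adjusted p 0.0658 and 0.074). Phlpp2 encodes a phosphatase that removes an activating phosphate from AKT. Other AKT substrates had 0 calls among 13 tested (2 higher and 0 lower at an unadjusted edgeR p under 0.05; median 0.04). Foxo1, whose product AKT keeps out of the nucleus, had a log2 fold change of 0.95 (adjusted p 0.104), Foxo4 had 0.59 and Pfkfb2 had 0.69. By DESeq2, 19 pathway genes over all lists were called higher and 12 lower, where 10.7% of all genes tested were called in each direction.

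Genes of GLUT4 vesicle traffic had 2 calls among 24 tested (median -0.04). Vamp2, the vesicle SNARE that GLUT4 vesicles use to fuse with the plasma membrane, rose from 18.4, 14.8 and 13.5 FPKM in wild type to 29.1, 38.6 and 45.4 FPKM in the knockout (log2 fold change 1.32, SE 0.23, edgeR adjusted p 0.0438). Ralgapa2, a subunit of a GTPase-activating complex that AKT phosphorylates, rose from 4.73, 4.39 and 3.49 to 7.50, 8.74 and 9.50 FPKM (1.07, SE 0.19, adjusted p 0.0447). Both were called without CD44 KO replicate 1, Vamp2 also without wild type replicate 1, and neither in another fit that left out 1 library. Of this list 6 genes were higher and 5 lower at an unadjusted edgeR p under 0.05.

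Glucose transporters and glycogen genes had 1 call in each direction among 23 tested (median 0.37; 7 higher and 2 lower at an unadjusted edgeR p under 0.05). Slc2a3, the high-affinity transporter GLUT3 of neurons and leukocytes, rose from 2.89, 1.17 and 1.31 FPKM to 10.1, 18.6 and 7.65 FPKM (log2 fold change 3.07, SE 0.49, adjusted p 0.0402), and was called also without replicate 1 or replicate 2 of the knockout group but in no other such fit. It was highest in CD44 KO replicate 2, the library with the most epididymis transcripts, and without that library the groups were still apart. The other call was Gys2, described above. Slc2a4 made up 81.9%, 35.6% and 58.5% of the summed FPKM of Slc2a1, Slc2a3 and Slc2a4 in wild type and 78.9%, 70.5% and 85.9% in the knockout, with overlap through wild type replicate 1.

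**Figure D5:**
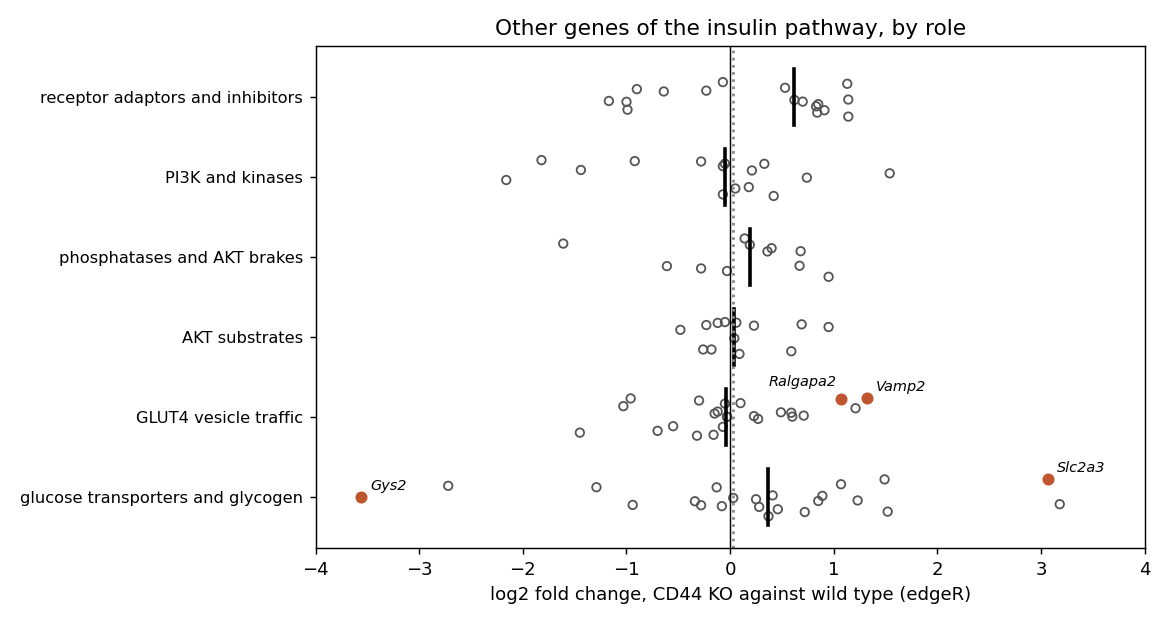
Log2 fold change (x axis) of each tested gene of 6 lists of other insulin pathway genes; filled points passed an edgeR adjusted p under 0.05, short bars are list medians and the dotted line is the median of all genes tested (0.03). The 4 called genes are Vamp2, Ralgapa2, Slc2a3 and Gys2.

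Irs1 and Slc2a4 were used to look for genes with a like pattern, by Pearson's r of log2 CPM over the 6 libraries among 12914 genes, which describes these libraries only and is carried in large part by the gap between the genotypes. Irs1 was most like Adam11 (r 0.9981), Prkag2 (0.9978), which encodes a regulatory subunit of the energy sensor AMPK, and Adgrg2 (0.9961). Slc2a4 was most like Car3 (0.9991), a carbonic anhydrase gene abundant in fat cells, Palmd (0.9988) and Adhfe1 (0.9984). Car3 stood at 5076, 1127 and 1829 FPKM in wild type and 8678, 7535 and 11590 FPKM in the knockout. Like Slc2a4, it was higher in wild type replicate 1 than in the rest of its group and highest in CD44 KO replicate 3.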

How the data were processed

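Messenger RNA of 6 libraries was enriched with oligo(dT) beads, made into libraries with a NEBNext Ultra kit and run on a NovaSeq, per the labels' protocols. HISAT2, StringTie 1.3.1, RSEM and DESeq2 are named in the submitters' processing notes without a role; the build, annotation and strand setting were not given in the sources used here. The authors deposited expected counts per gene (7.57% to 8.3% of values not whole) and FPKM, per the file headers. A second table that the authors deposited adds their log2 fold change, which equals the log2 ratio of mean FPKM, and their p-values and FDR.

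Expected counts were rounded and tested over all 13829 genes kept by filterByExpr with edgeR 4.0.16 in R 4.3.3 (TMM, robust quasi-likelihood F-test, Benjamini-Hochberg), called at an adjusted p under 0.05. SE is the absolute log2 fold change over the square root of F, and 95% intervals use the test's moderated degrees of freedom (median 6.526). Errors of FPKM are SD over 3 libraries. On simulated data with 13829 genes the fit called 81% of genes changed 4-fold and 93% of those changed 8-fold, with 13 false calls among 187. Those counts were drawn independently, without differences in tissue make-up between libraries, and genes of low level were not among the changed ones. The shares therefore do not give the power for smaller changes or for the real libraries. Alternatives were DESeq2 1.42.0, other scalings, no filter, limma 3.58.1 on log2(FPKM + 1), a replicate block and leaving out each library. Log2 CPM used a prior count of 2. Positions are from GENCODE M21 (GRCm38), matched by identifier for 13815 of the genes tested. The libraries carry no stated molecular identifiers, so reads may repeat molecules.

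The members, the lists and the alternatives were chosen with earlier results of these data known. Named genes are the members, the called genes of each list and otherwise up to 3 of lowest p, fixed paralogs and markers, and for Irs1 and Slc2a4 the 3 genes of highest correlation with a mean of at least 1 CPM, unnamed gene models left out. Irs3 and the antisense neighbours Gm9747 and Ruvbl2 fall outside that rule and were named after their values were seen. The list symbol Synip was not matched in the table. Some genes that the rule selects are not reported here.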

Additional observations from a re-analysis of the deposited data

How the results depend on the processing

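All 120 log2 fold changes recomputed for the 10 members over 12 alternatives kept their sign; 84 also kept their side of the threshold, 25 lost the call and 11 gained one. Members called higher were 4 with all libraries, 2 with total counts only, 1 with no filter on low counts, 9 by DESeq2, and between 0 and 7 when 1 library was left out; RLE size factors and limma on log2(FPKM + 1) gave 4 each. Other pathway genes called higher were 3, against 1 with no filter, 19 by DESeq2, and 0 to 11 when 1 library was left out. Those called lower were 1, against 12 by DESeq2 and 0 to 13 when 1 library was left out. The 11 higher and 13 lower, among 103 tested, both came without CD44 KO replicate 1, where 7.22% and 10% of all genes were called. DESeq2 called 10.7% of all genes in each direction, and edgeR with no filter called 0.784% higher. With the replicate number as a block, 0 members, 0 other pathway genes and 0 of all genes tested were called in either direction by edgeR (Irs1 adjusted p 0.14); the fewer residual degrees of freedom are part of that fit's construction. The deviations of same-numbered libraries from their group means correlated at -0.321, -0.218 and -0.018 for numbers 1 to 3, and no library correlated best with its own number. These values cannot exclude a pairing by number, since deviations from a mean of 3 libraries are not independent. The log2 ratios of related genes kept their sign under each of the 7 alternatives run for them and moved by less than 1 SD, which for Slc2a4 to Slc2a1 in wild type is 1.75. Of 70 recomputed values relative to adipocyte markers 59 kept their sign and moved by less than 1 SD. The other 11 changed sign or moved by at least 1 SD. Irs1 rests on 95 to 374 counts per library.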
